A study of Homo sapiens with 6 samples.

Results

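Nuclear pore complex genes encode the nucleoporins, the proteins that build the channels through the nuclear envelope. The 32 genes described here were taken from a list of symbols and matched to the Ensembl gene IDs of the expression files, in which they make up 32 of 38126 IDs. All 32 were found, and all 32 passed the filter on low values, as did 16175 genes in the whole series. The libraries come from HK-2, an established line of immortalised epithelial cells from the human kidney proximal tubule, grown in serum-free keratinocyte medium with bovine pituitary extract and recombinant EGF. There were 2 groups of 3 libraries from total RNA, and whether poly(A) selection or rRNA depletion was used is not stated. One group was untreated per the treatment label and one was exposed to phosphoramidon for 24 h, with cells near confluence in both. Phosphoramidon blocks neprilysin, endothelin-converting enzyme and other peptidases that use zinc. No dose and no genotype beyond the line is stated, and the titles of the untreated libraries carry the letters CSE without explaining them. The comparison therefore asks how the RNA of these genes differed between phosphoramidon-treated and untreated cells of 1 cell line.

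The nuclear pore is a ring of repeated units set where the outer and inner nuclear membranes fuse. Y-shaped complexes form the outer rings on both faces, an inner ring lines the middle, transmembrane nucleoporins anchor it, and nucleoporins rich in phenylalanine-glycine repeats fill the channel and bind transport receptors. Filaments reach into the cytoplasm, where messenger RNA is released, and a basket reaches into the nucleus. Most of the structure comes apart when the nuclear envelope breaks down in mitosis and is rebuilt around the daughter nuclei.

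The libraries held 18690100 to 24919568 assigned fragments each, read from the step between deposited FPKM values (fragments per kilobase of gene, relative to the assigned total). The 32 genes had 292 to 7378 fragments per gene and library. Libraries of the same group correlated at 0.991 to 0.993 over tested genes on the log2 scale, and libraries of different groups at 0.981 to 0.983. The labels do not tell whether the libraries of a group are separate cultures. The p-values therefore reflect library-to-library spread alone, and that spread may be technical. In such bulk RNA, fewer cells of a type and less RNA per cell cannot be told apart. Of the 14 proximal tubule markers checked, SLC22A6 and SLC22A8 were listed at 0 in every library, the endocytic receptors LRP2 and CUBN and the regulator HNF4A were near 0, and PAX8, a kidney lineage factor, stood at 63.7 ± 1.91 FPKM (SD, n = 3) in untreated cells. The transporter genes that define the labelled cell type were thus at or near 0.

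The changes of nuclear pore genes were small and, where they passed the test, mostly upwards. Of the 32 genes, 10 were higher and 1 was lower than in untreated libraries at a limma adjusted p below 0.05 (adjusted over all tested genes), and 21 did not pass. Among all tested genes, 15.6% were called higher and 17.9% lower, 33.6% in all. At an unadjusted limma p below 0.05, 20 of the 32 were higher and 1 lower, against 21.2% and 22.7% of all tested genes, and voom on recovered fragments called 17 higher and 1 lower, against 18.8% and 20.4%. The genes that rose by the adjusted limma p were NUP210, GLE1, NDC1, NUP133, NUP58, NUP98, NUP107, NUP35, NUP43 and POM121C, and the one that fell was SEC13. The median log2 fold change (phosphoramidon minus untreated, on the log2(FPKM + 0.1) scale after scaling between libraries) was 0.13 over the 32 genes, against 0.01 over all tested genes. The value was above 0 for 25 of the 32, against 51.3% of all tested genes. None of the 32 was past a 1.5-fold change by limma's treat, at an adjusted or an unadjusted p below 0.05, and none by voom. Few genes of any kind were: of 16175 tested, 24 were past it upwards and 106 downwards by the adjusted p. The absence among the 32 therefore does not set them apart. Counts of all tested genes past 1.5-fold at the unadjusted p and by voom were not taken.

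In the deposited values, every phosphoramidon library lay above every untreated library for 22 of the 32 genes, against 31.3% of all tested genes. The reverse held for SEC13 alone, against 18.4% of all tested genes, and the groups overlapped for the other 9. After scaling, 21 of the 22 still did not overlap, and the exception was SEH1L. The share over all tested genes was not counted after scaling, so the 21 have no background beside them. Scaling between libraries mattered for the counts: on the values as deposited, 20 of the 32 genes were called higher and 1 lower, with a median of 0.20 against 0.07 over all tested genes, and the split over all tested genes was 3647 higher to 2169 lower, compared with 2529 to 2902 after scaling. Leaving out untreated library 2 took the count of higher genes from 10 to 6. Across 19 alternative settings, NUP210, GLE1, NDC1, NUP133, NUP58, NUP98 and SEC13 were called in the same direction in all 19.

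**Figure D1:**
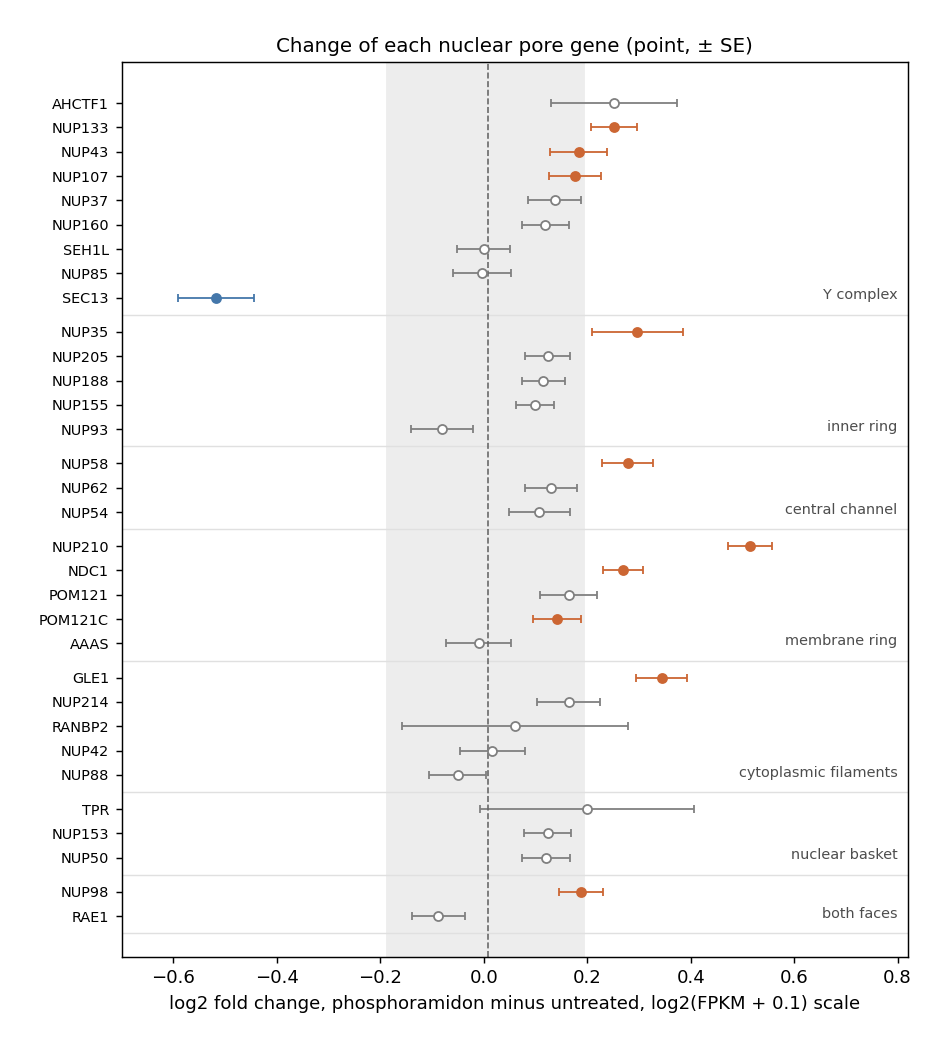
Log2 fold change of each nuclear pore gene (phosphoramidon minus untreated, log2(FPKM + 0.1) scale, bars ± SE from limma, 3 libraries a group), ordered within each substructure. Filled points passed an adjusted p below 0.05, the dashed line is the median of all tested genes at 0.01 and the grey band holds their middle 50%. NUP210 at 0.52 and SEC13 at -0.52 lie farthest from it, and TPR, RANBP2 and AHCTF1 have the widest errors.

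The sum of the 32 genes was 412, 433 and 428 FPKM in untreated libraries 1 to 3 and 475, 489 and 502 FPKM in phosphoramidon libraries 1 to 3. The groups did not overlap in this sum of deposited values. Per kilobase, the levels of the 32 genes were within a range of 8.51-fold in untreated cells, from NUP35 at 3.52 ± 0.4001 FPKM (SD, n = 3) to NUP153 at 29.97 ± 1.06 FPKM (SD, n = 3). Next to NUP153 stood NUP205 at 25.9 ± 1.21 FPKM (SD, n = 3), a scaffold protein of the inner ring, and AHCTF1 at 23.3 ± 3.09 FPKM (SD, n = 3). These last neighbours did not differ beyond their spread. Next above NUP35 stood NUP42 at 4.56 ± 0.283 FPKM (SD, n = 3) and SEH1L at 5.24 ± 0.112 FPKM (SD, n = 3). Substructure did not sort the levels: the median untreated level was 16.1 FPKM in the nuclear basket, 15.6 FPKM in the inner ring, 13.2 FPKM in the central channel, 10.6 FPKM in the Y complex, 10.5 FPKM in the cytoplasmic filaments, 9.62 FPKM in the membrane ring, and 13.5 FPKM for the pair found on both faces. All of these except the basket had members above and below the median of 12.6 FPKM over the 32 genes.

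**Figure D2:**
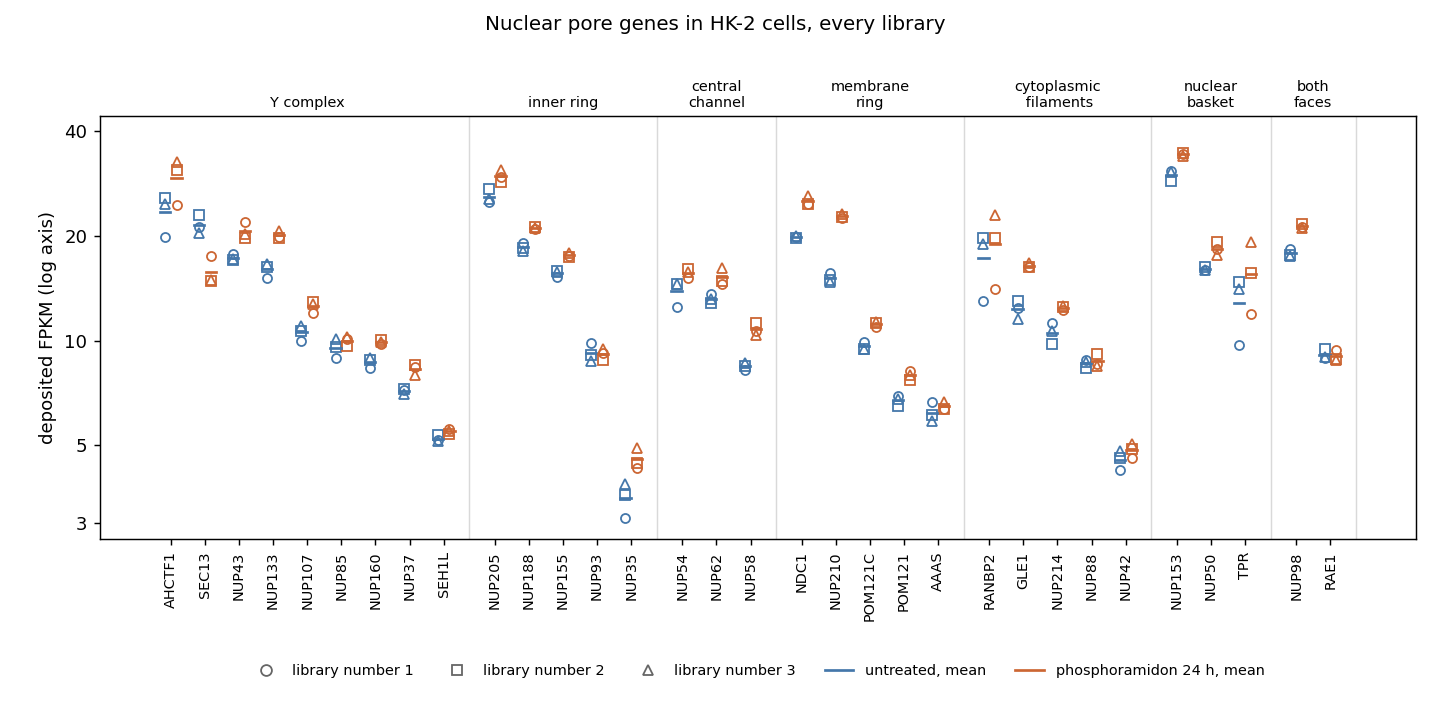
Deposited FPKM (log axis) of the 32 nuclear pore genes in every library, grouped by substructure and ordered by mean level, with blue for untreated, orange for phosphoramidon, marker shapes for library numbers and lines for group means. Most genes show both groups as tight clusters with phosphoramidon slightly above, SEC13 shows the opposite, and library number 1 (circles) is low in both groups for AHCTF1, RANBP2 and TPR.

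Promoters were read after the fold changes above were seen, and shared regulation of these genes was not tested. RefSeq windows on GRCh38.p14 were matched by symbol for 29 of the 32 genes, all except AHCTF1, GLE1 and NUP43. Where a symbol had several windows, the first listed was used, and other starts were not read. In the 250 bases before the start, 7 motifs were searched on both strands. The ETS motif was spelled CCGGAAG. The cell cycle homology region, or CHR, was spelled TTTGAA, and the CCAAT box by its own letters. NRF1 was spelled GCGCATGC, YY1 was spelled AAGATGGC and the E-box was spelled CACGTG. E2F was searched as TTTCCCGC, as TTTGGCGC and as TTTCGCGC. The NRF1 letters can match both strands at overlapping positions, and no other pair of motifs overlaps in the stretches printed here. ETS letters were present in 13 of 29 nuclear pore promoters (44.8%) and in 15.3% of 11438 promoters of tested genes. CHR letters were in 6 of 29 (20.7%, against 8.38%), and NRF1 letters in 3 of 29 (10.3%, against 4.69%). CCAAT boxes were in 10 of 29 (34.5%, against 35.0%), E-boxes in 2 (6.90%, against 8.81%), YY1 letters in 1 (3.45%, against 1.84%) and E2F letters in 0 (against 3.76%). These are matches of letters in a fixed window and describe no binding.

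The stretches below are the last 120 bases before the RefSeq start of members on which the results turn, with capitals marking motif letters on either strand. NUP210 is shown as the gene that rose most and holds none of the motifs here, NDC1 for its CHR, SEC13 as the gene that fell, and NUP107, NUP58 and NUP35 as risen genes with ETS letters, NUP35 also with CHR and CCAAT letters and NUP107 with NRF1 letters.
NUP210 (chr3:13420323-13420442, minus strand): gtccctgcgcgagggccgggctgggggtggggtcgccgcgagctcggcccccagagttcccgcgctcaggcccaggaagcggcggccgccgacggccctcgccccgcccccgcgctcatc
NDC1 (chr1:53838297-53838416, minus strand): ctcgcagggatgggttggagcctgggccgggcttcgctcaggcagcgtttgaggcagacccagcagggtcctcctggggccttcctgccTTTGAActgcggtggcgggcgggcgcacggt
SEC13 (chr3:10321113-10321232, minus strand): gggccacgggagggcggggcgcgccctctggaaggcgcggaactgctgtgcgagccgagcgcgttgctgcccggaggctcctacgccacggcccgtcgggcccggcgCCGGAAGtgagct
NUP107 (chr12:68686858-68686977, plus strand): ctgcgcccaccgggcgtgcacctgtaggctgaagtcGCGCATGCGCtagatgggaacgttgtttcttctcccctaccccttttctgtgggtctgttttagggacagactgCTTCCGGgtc
NUP58 (chr13:25301505-25301624, plus strand): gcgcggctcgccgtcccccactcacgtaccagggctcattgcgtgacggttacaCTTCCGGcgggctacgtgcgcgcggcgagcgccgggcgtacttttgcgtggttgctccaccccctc
NUP35 (chr2:183124323-183124442, plus strand): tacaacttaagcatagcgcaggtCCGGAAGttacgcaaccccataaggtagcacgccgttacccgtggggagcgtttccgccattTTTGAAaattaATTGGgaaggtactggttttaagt

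Among the genes with a matched promoter, ETS letters stood in 4 of the 8 risen genes, in SEC13, the 1 that fell, and in 8 of the 20 that did not pass; the difference was not tested. CHR letters were in 3 of those 8 risen genes, NDC1, NUP35 and NUP98, and in 3 of the 20. Over all tested genes with a promoter, ETS letters were in 12.3% of those called higher, 14.1% of those called lower and 16.4% of the rest. CHR letters were in 10.3%, 8.31% and 7.90% of the same groups.

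The membrane ring, which anchors the pore in the fused envelope, held 5 genes, of which 3 rose, 0 fell and 2 did not pass. Its median log2 fold change was 0.16. By limma's unadjusted p below 0.05, 4 of its genes were higher and 0 lower, and by voom the counts were the same. NUP210 encodes gp210, a glycoprotein that spans the pore membrane and that is known for appearing in some differentiated cell types and not others. The gene lies on chromosome 3 from 13316235 to 13420309 on the minus strand (GRCh38). It measured 15.6, 14.98 and 14.7 FPKM in untreated libraries 1 to 3, and 22.4, 22.7 and 23.1 FPKM in phosphoramidon libraries 1 to 3. The groups were far apart relative to their spread, and all 3 phosphoramidon libraries stood together. Its log2 fold change of 0.52 (SE 0.043, limma adjusted p = 7.23e-05) was the largest rise of the 32, and it stayed between 0.49 and 0.59 in all alternatives. NUP210 made up 26.5%, 26.4% and 25.9% of the summed FPKM of the 5 membrane ring genes in untreated libraries, and 30.9%, 31.1% and 30.7% in phosphoramidon libraries. Its relative NUP210L was near 0 in all libraries.

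NDC1, a transmembrane nucleoporin that other ring proteins attach to, is on chromosome 1 from 53765460 to 53838860 on the minus strand. NDC1 read 19.8, 19.7 and 19.96 FPKM in untreated libraries and 24.6, 24.7 and 26.1 FPKM in phosphoramidon libraries. Its untreated libraries had the smallest coefficient of variation of the 32 genes in that group, 0.599%. It rose by a log2 fold change of 0.27 (SE 0.039, limma adjusted p = 0.00108). AAAS, or ALADIN, which binds NDC1, was the lowest of the ring in untreated cells and read 6.68, 6.10 and 5.88 FPKM there and 6.37, 6.38 and 6.68 FPKM with phosphoramidon. These groups overlapped, with a log2 fold change of -0.01 (limma adjusted p = 0.922) whose sign flipped on the values as deposited.

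POM121 and POM121C are closely similar genes on chromosome 7, at 72879365 to 72951440 on the plus strand and 75416787 to 75486271 on the minus strand, that encode a transmembrane nucleoporin. They are described together because reads could be assigned to either: 37.7% of the distinct 50-base words of POM121 transcripts also occur in other genes' transcripts, 31.1% in POM121C, and 47.9% of those of POM121C occur elsewhere, 34.9% in POM121. Their promoters show a like closeness, with 102 of 106 aligned bases identical (96.2%) in the stretches shown here for that reason, both with ETS letters. Bases set against a gap were left out of this count, and POM121 has an internal run of bases that POM121C lacks.
POM121 (chr7:72879237-72879356, plus strand): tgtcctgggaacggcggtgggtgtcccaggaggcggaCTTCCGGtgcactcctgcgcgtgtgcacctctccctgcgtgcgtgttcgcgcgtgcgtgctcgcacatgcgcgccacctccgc
POM121C (chr7:75486300-75486419, minus strand): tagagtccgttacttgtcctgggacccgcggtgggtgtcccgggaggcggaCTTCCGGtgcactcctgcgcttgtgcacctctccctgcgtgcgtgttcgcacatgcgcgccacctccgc

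POM121C read 9.92, 9.47 and 9.48 FPKM in untreated libraries and 10.97, 11.2 and 11.3 FPKM in phosphoramidon libraries. POM121 read 6.94, 6.50 and 6.81 FPKM and then 8.17, 7.72 and 7.98 FPKM. In both genes the groups did not overlap, and the log2 fold changes were 0.14 for POM121C (SE 0.046, limma adjusted p = 0.0425) and 0.16 for POM121 (SE 0.056, limma adjusted p = 0.0505). POM121C passed and POM121 did not, a division that rests on the threshold: the difference between them was not tested. The POM121C call was lost without any one of untreated libraries 2 and 3 and phosphoramidon libraries 1, 2 and 3 (log2 fold changes 0.12, 0.13, 0.15, 0.14 and 0.14, limma adjusted p = 0.143, 0.108, 0.0796, 0.114 and 0.0869). It was also lost under median-of-ratios factors (limma adjusted p = 0.0614), TMM factors over all genes (0.0730) and no filter (0.0891), and with both libraries numbered 1 left out (0.0541), and it passed in 9 of the 19 alternatives. POM121 passed in 7 of the 19; with single libraries left out it ran from 0.13 to 0.20, and passed only without untreated library 1 (limma adjusted p = 0.0435). POM121 also shares 18.8% of its exon bases with NSUN5P2 on the opposite strand, and whether the authors' counting used strand is not given in the sources used here.

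The Y complex, the scaffold of the outer rings, held 9 genes, of which 3 rose, 1 fell and 5 did not pass, with a median log2 fold change of 0.14. SEC13, a beta-propeller protein that serves both in the Y complex and in the COPII coat of vesicles leaving the endoplasmic reticulum, was the gene that fell. It lies on chromosome 3 from 10293131 to 10321178 on the minus strand. SEC13 read 21.2, 22.9 and 20.4 FPKM in untreated libraries 1 to 3 and 17.4, 14.9 and 14.97 FPKM in phosphoramidon libraries 1 to 3. All phosphoramidon libraries were below all untreated ones, and phosphoramidon library 1 was the highest of its group. The log2 fold change was -0.52 (SE 0.074, limma adjusted p = 0.00107), between -0.60 and -0.45 over the alternatives. SEC13 made up 18.7%, 18.6% and 16.8% of the summed FPKM of the 9 Y-complex genes in untreated libraries and 13.5%, 11.3% and 11.1% in phosphoramidon libraries. The summed deposited FPKM of the 9 genes, not scaled between libraries, went the other way. It was 113.5 to 123.5 in untreated and 129.6 to 134.7 in phosphoramidon libraries. AHCTF1, which did not pass and was lowest in library number 1 of each group, had means of 23.3 and 29.3 FPKM in that sum. An antisense gene, GHRLOS, covers 3.78% of the exon bases of SEC13.

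NUP133 and NUP107 form the stem of the Y and bind each other. NUP133, on chromosome 1 from 229440260 to 229508341 on the minus strand, read 15.1, 16.3 and 16.6 FPKM in untreated libraries and 19.9, 19.7 and 20.6 FPKM in phosphoramidon libraries. The groups were apart, and NUP133 rose by a log2 fold change of 0.25 (SE 0.045, limma adjusted p = 0.00318). NUP107, on chromosome 12 from 68686734 to 68745809 on the plus strand, read 10.01, 10.7 and 11.04 FPKM and then 12.004, 12.9 and 12.8 FPKM. Its groups also did not overlap, with a rise of 0.18 (SE 0.050, limma adjusted p = 0.0261). The NUP107 call was lost without untreated library 1 or 2 or phosphoramidon library 2 or 3, at log2 fold changes of 0.15, 0.17, 0.16 and 0.17 (limma adjusted p = 0.0743, 0.0679, 0.0901 and 0.0635). It was also lost with no filter (limma adjusted p = 0.0746) and with both libraries numbered 1 left out (0.0665), and it passed in 13 of the 19 alternatives.

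NUP43, a beta-propeller at the arms of the Y, is on chromosome 6 from 149724315 to 149749665 on the minus strand. NUP43 read 17.7, 16.995 and 17.1 FPKM in untreated libraries and 21.96, 19.7 and 20.3 FPKM in phosphoramidon libraries. The 3 phosphoramidon values were all above the untreated ones, with library 1 the highest of each group, and the rise was 0.18 (SE 0.055, limma adjusted p = 0.0334). This call was lost without untreated library 2 or 3 or phosphoramidon library 1, at 0.16, 0.18 and 0.13 (limma adjusted p = 0.0901, 0.0709 and 0.0802). It was also lost with the GC and length trend removed (limma adjusted p = 0.0545), with no filter (0.111) and with both libraries numbered 1 left out (0.0556), and it passed in 13 of the 19 alternatives. SEH1L, which like SEC13 is shared with a complex outside the pore (GATOR2, a regulator of nutrient signalling), was the lowest of the Y complex. SEH1L read 5.17, 5.37 and 5.17 FPKM in untreated and 5.58, 5.40 and 5.52 FPKM in phosphoramidon libraries. These deposited values did not overlap by a narrow margin, but after scaling they did, and the log2 fold change was 0.00 (SE 0.052, limma adjusted p = 0.996), with a sign that flipped between scalings.

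Of the other Y-complex genes, NUP160 and NUP37 had values of 0.12 and 0.14 with no overlap between groups and did not pass (limma adjusted p = 0.0731 and 0.0736). With single libraries left out NUP37 ran from 0.12 (without phosphoramidon library 2, limma adjusted p = 0.203) to 0.18 (without phosphoramidon library 3, limma adjusted p = 0.0448, where it passed). NUP85 had a log2 fold change of 0.00 (SE 0.056, limma adjusted p = 0.976), overlapping groups and a sign that flipped on the deposited values. AHCTF1, or ELYS, which places Y complexes on chromatin as the envelope is rebuilt, is described with TPR and RANBP2 for its spread.

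The inner ring, the scaffold of the channel's middle, held 5 genes, of which 1 rose and 4 did not pass, with a median of 0.11. At an unadjusted limma p below 0.05 the counts were 4 higher and 0 lower, and voom called 3 higher and 0 lower. NUP35, which binds membranes and links the ring to the transmembrane nucleoporins, was the gene of the 32 with the fewest fragments. It is on chromosome 2 from 183117513 to 183161680 on the plus strand. NUP35 read 3.09, 3.61 and 3.87 FPKM in untreated libraries 1 to 3 and 4.31, 4.47 and 4.90 FPKM in phosphoramidon libraries 1 to 3. The groups did not overlap, and untreated library 1 was the lowest of the 6. The rise was 0.30 (SE 0.088, limma adjusted p = 0.0303), and the call was lost without untreated library 1 or 2 or phosphoramidon library 2 or 3, at 0.22, 0.30, 0.31 and 0.25 (limma adjusted p = 0.0797, 0.0626, 0.0623 and 0.0927). It was also lost with no filter (limma adjusted p = 0.109) and with both libraries numbered 1 left out (0.0751), and it passed in 13 of the 19 alternatives.

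NUP205, one of the large scaffold proteins of the inner ring and its highest gene, read 24.97, 27.3 and 25.4 FPKM in untreated and 29.6, 28.5 and 30.8 FPKM in phosphoramidon libraries. The groups did not overlap, with a log2 fold change of 0.12 (SE 0.044) that did not pass (limma adjusted p = 0.0603). Its relative NUP188 (0.11, limma adjusted p = 0.0637) and the scaffold gene NUP155 (0.10, limma adjusted p = 0.0735) were of the same size, also with no overlap. NUP188 ran from 0.10 (without untreated library 2, limma adjusted p = 0.179) to 0.15 (without untreated library 1, limma adjusted p = 0.0296, where it passed). NUP93, which holds the ring to the central channel, had overlapping groups and a log2 fold change of -0.08 (SE 0.059, limma adjusted p = 0.334).

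The central channel proteins NUP62, NUP58 and NUP54 form 1 complex rich in phenylalanine-glycine repeats, through which transport receptors pass. Of its 3 genes 1 rose and 2 did not pass, and all 3 showed no overlap between groups (median 0.13). At an unadjusted limma p below 0.05, 2 were higher and 0 lower, and voom gave the same counts. NUP58, on chromosome 13 from 25301524 to 25349800 on the plus strand, read 8.22, 8.47 and 8.60 FPKM in untreated libraries and 10.6, 11.3 and 10.4 FPKM in phosphoramidon libraries. Its lowest phosphoramidon value was well above its highest untreated one, and the rise was 0.28 (SE 0.050, limma adjusted p = 0.00337). NUP54, the highest of the 3, read 12.5, 14.5 and 14.6 FPKM and then 15.2, 16.0 and 15.7 FPKM, with library 1 the lowest in each group (0.11, SE 0.059, limma adjusted p = 0.198). Without untreated library 1 its value was 0.05 (limma adjusted p = 0.465), and without untreated library 3 it was 0.15 (limma adjusted p = 0.105). NUP62 had a log2 fold change of 0.13 (SE 0.051, limma adjusted p = 0.0809), and 21.1% of its exon bases overlap other genes, with ATF5 on the opposite strand covering 10.4%. The X-linked relative NUP62CL, no part of the list of 32, rose from 2.81 ± 0.222 FPKM (SD, n = 3) to 4.21 ± 0.220 FPKM (SD, n = 3), a log2 fold change of 0.50 (limma adjusted p = 0.00131).

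The cytoplasmic filaments, where export complexes are taken apart, held 5 genes, of which 1 rose, 0 fell and 4 did not pass, with a median of 0.06. At an unadjusted limma p below 0.05 the counts were 2 higher and 0 lower, as by voom. GLE1, which activates the helicase that strips export factors from messenger RNA, lies on chromosome 9 from 128504700 to 128542288 on the plus strand. GLE1 read 12.4, 12.99 and 11.5 FPKM in untreated libraries 1 to 3 and 16.3, 16.3 and 16.7 FPKM in phosphoramidon libraries 1 to 3. The phosphoramidon libraries were nearly equal and all above the untreated ones, with a rise of 0.34 (SE 0.049, limma adjusted p = 0.00103), the second largest of the 32.

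NUP42, the partner of GLE1 in that step, was the lowest filament gene and read 4.25, 4.60 and 4.82 FPKM in untreated and 4.61, 4.88 and 5.04 FPKM in phosphoramidon libraries. The groups overlapped, with a log2 fold change of 0.02 (SE 0.064, limma adjusted p = 0.866), and AC005082.2 covers 12.96% of its exon bases on the opposite strand. The difference between GLE1 and NUP42 was not tested. NUP214 and NUP88, which form the base of the filaments, had values of 0.16 (SE 0.060, limma adjusted p = 0.0673, no overlap) and -0.05 (SE 0.055, limma adjusted p = 0.516, overlap). NUP214 was at 0.22 without untreated library 1, where it passed (limma adjusted p = 0.0236), and at 0.10 without untreated library 2 (limma adjusted p = 0.203), and the sign of NUP88 flipped on the deposited values. Opposite-strand genes RPAIN and RABEP1 cover 9.82% and 8.84% of the exon bases of NUP88.

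NUP98, a repeat-rich nucleoporin found on both faces of the pore, is made from a gene whose longest product also gives the Y-complex protein NUP96, so that 1 RNA value stands for both proteins. The gene lies on chromosome 11 from 3671083 to 3797792 on the minus strand. NUP98 read 18.3, 17.6 and 17.5 FPKM in untreated libraries and 21.2, 21.7 and 21.1 FPKM in phosphoramidon libraries. The groups were apart by more than the spread within either, and the rise was 0.19 (SE 0.043, limma adjusted p = 0.00984). RAE1, the messenger RNA export factor that binds NUP98, read 8.89, 9.48 and 8.99 FPKM in untreated and 9.37, 8.86 and 8.80 FPKM in phosphoramidon libraries. These groups overlapped, with a log2 fold change of -0.09 (SE 0.051, limma adjusted p = 0.220).

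In the nuclear basket none of the 3 genes passed at an adjusted p below 0.05, while 2 were higher and 0 lower at an unadjusted limma p below 0.05 and voom called 2 higher. NUP153, which docks import receptors on the nuclear side, was the highest of the 32 in untreated cells and read 30.6, 28.7 and 30.6 FPKM there, against 34.4, 34.6 and 33.9 FPKM with phosphoramidon. All 3 phosphoramidon values were above the untreated ones, with a log2 fold change of 0.12 (SE 0.045, limma adjusted p = 0.0663), at 0.15 without untreated library 1, where it passed (limma adjusted p = 0.0491), and at 0.08 without untreated library 2 (limma adjusted p = 0.195). NUP50, which helps to release import cargo, had 0.12 (SE 0.046, limma adjusted p = 0.0762) with no overlap. With single libraries left out it ran from 0.09 (without phosphoramidon library 2, limma adjusted p = 0.237) to 0.16 (without phosphoramidon library 3, limma adjusted p = 0.0327, where it passed).

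The genes TPR, RANBP2 and AHCTF1 stood apart from the other 29 by their spread within groups. TPR, the coiled-coil protein of the basket, read 9.74, 14.7 and 14.1 FPKM in untreated libraries 1 to 3 and 11.9, 15.6 and 19.1 FPKM in phosphoramidon libraries 1 to 3. RANBP2, the largest filament protein and a SUMO ligase, read 13.01, 19.7 and 19.0 FPKM and then 14.1, 19.8 and 22.95 FPKM. AHCTF1 read 19.8, 25.6 and 24.6 FPKM and then 24.5, 30.8 and 32.5 FPKM. In each gene library number 1 was the lowest of its group, both untreated and treated, and the groups overlapped. Libraries 2 and 3 did not keep their order: library 2 was the higher in untreated cells and library 3 with phosphoramidon, in all 3 genes. Library 1 lay below the mean of libraries 2 and 3 by log2 differences of -0.53 and -0.51 for TPR, -0.54 and -0.57 for RANBP2 and -0.31 and -0.34 for AHCTF1 (untreated, then phosphoramidon). Their coefficients of variation ran from 13.2% to 23.7%, while the 32 genes had medians of 3.49% (untreated) and 3.39% (phosphoramidon), and the other 29 reached at most 11.4% and 9.25%.

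The log2 fold changes of these 3 genes were 0.20 (SE 0.207, limma adjusted p = 0.506) for TPR, 0.06 (SE 0.219, limma adjusted p = 0.862) for RANBP2 and 0.25 (SE 0.121, limma adjusted p = 0.155) for AHCTF1. With both libraries numbered 1 left out, they were 0.19 (limma adjusted p = 0.165), 0.07 (limma adjusted p = 0.514) and 0.26 (limma adjusted p = 0.00822). Single libraries moved all 3 values. AHCTF1 was at 0.15 without untreated library 1 (limma adjusted p = 0.357) and at 0.37 without phosphoramidon library 1, where it passed (limma adjusted p = 0.0306). TPR was at 0.03 without untreated library 1, 0.05 without phosphoramidon library 3 and 0.37 without phosphoramidon library 1 (limma adjusted p = 0.926, 0.886 and 0.206). RANBP2 ran from -0.11 without untreated library 1 to 0.25 without phosphoramidon library 1, and was also negative without phosphoramidon library 3 (-0.08). AHCTF1 and RANBP2 are also genes with near-identical copies. Of the 50-base words of AHCTF1, 43.5% occur in the pseudogene AHCTF1P1, and of those of RANBP2, 19.0% occur in RGPD3. The highest RGPD copy, RGPD8, read 0.717 ± 0.0611 FPKM (SD, n = 3) in untreated cells.

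All 3 genes have GC-poor transcripts, at 40.1% for TPR, 39.2% for RANBP2 and 40.3% for AHCTF1, within a range of 36.4% to 58.4% over the 32. The same pattern was present beyond the nuclear pore. Of 7065 genes with a mean of at least 500 fragments, 102 (1.44%) were low in library 1 of both groups by more than 0.3 on the log2 scale, as were 3 of the 30 nuclear pore genes at that depth. This limit was set after values were seen, and AHCTF1 lay just past it at -0.31 and -0.34. The count of 3 therefore depends on the limit, and the shares were not tested against each other. Those 102 had a median GC content of 37.7% and a median length of 10224 bases, against 46.55% and 5985 bases at that depth. Genes under 41% GC had a median library 1 difference of -0.07 (untreated) and -0.04 (phosphoramidon), and genes of 50% or more had 0.06 and 0.05. NUP58, the poorest in GC of the 32 at 36.4%, differed by -0.03 and 0.00. With the trend of GC and length removed from each library, 12 of the 32 were called higher and 1 lower. Whether GC content, length or another property of library number 1 lies behind the low values was not tested.

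**Figure D3:**
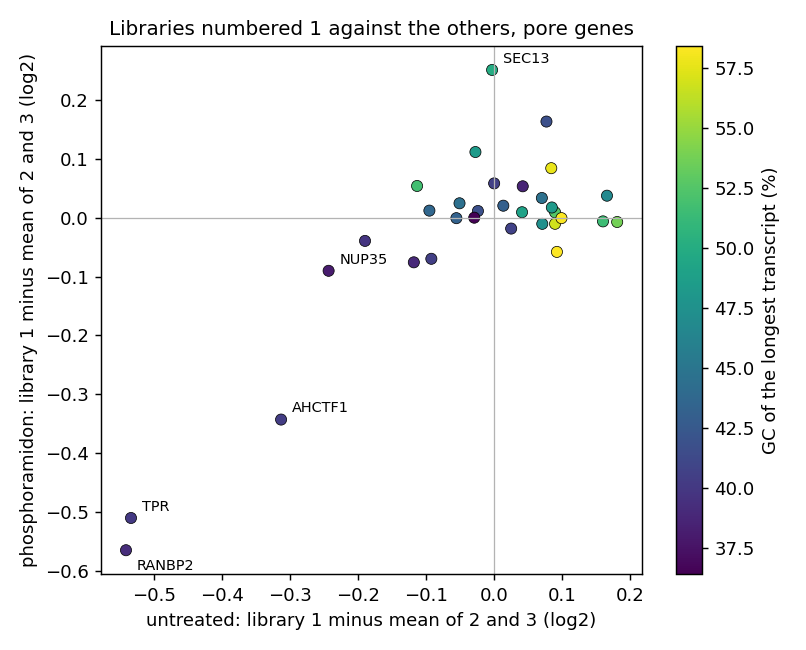
For each of the 32 nuclear pore genes, the log2 level in library 1 minus the mean of libraries 2 and 3, in untreated (horizontal) and phosphoramidon cells (vertical), coloured by GC content of the longest transcript in percent. RANBP2, TPR and AHCTF1 lie at the lower left at -0.31 or below on both axes, and most other genes lie near 0.

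The genes that work with the pore showed mixed directions, as did all tested genes, of which 15.6% were called higher and 17.9% lower. The lists were not tested against these shares. Importins, which carry cargo inwards, had 5 of 18 tested genes higher and 1 lower (median log2 fold change 0.05). Among them KPNA2, an importin alpha, rose from 104.2 ± 0.870 to 141 ± 1.46 FPKM (SD, n = 3 each; log2 fold change 0.37, limma adjusted p = 0.000151), and TNPO1 or transportin rose by 0.21 (limma adjusted p = 0.00576). SNUPN, the import adaptor of spliceosomal RNPs, fell with a log2 fold change of -0.42 (limma adjusted p = 0.00134). Of the 7 exportins 3 were higher and 2 lower (median 0.12). CSE1L, which returns importin alpha to the cytoplasm, rose from 107.4 ± 5.93 to 135.8 ± 4.74 FPKM (SD, n = 3 each; 0.27, limma adjusted p = 0.00399), as did XPO7 (0.18, limma adjusted p = 0.00874). XPOT, the exportin of transfer RNA, fell from 39.96 ± 1.11 to 29.8 ± 0.956 FPKM (SD, n = 3 each; -0.49, limma adjusted p = 0.000156), and XPO6, the exportin of actin, fell too (-0.13, limma adjusted p = 0.0389).

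The Ran cycle, which gives transport its direction, had 2 of 6 tested genes higher and 1 lower, with a median of 0.00. RCC1, the exchange factor on chromatin, rose by 0.25 (limma adjusted p = 0.00362) and RANGAP1, the GTPase activator bound to RANBP2, by 0.18 (limma adjusted p = 0.0175). RANBP1, a helper of that activator, fell with a log2 fold change of -0.24 (limma adjusted p = 0.00591). Messenger RNA export factors had 4 of 23 higher and 5 lower (median -0.02). NXF1, the main export receptor, rose from 12.9 ± 0.628 to 17.9 ± 0.244 FPKM (SD, n = 3 each; 0.39, limma adjusted p = 0.000329) and the cap-binding gene NCBP2 by 0.24 (limma adjusted p = 0.00423), whereas THOC5 (-0.26, limma adjusted p = 0.00873) and THOC7 (-0.22, limma adjusted p = 0.0210) of the THO complex fell.

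Genes of the nuclear lamina and inner membrane, the pore's neighbours in the envelope, had 5 of 19 higher and 3 lower (median 0.10). TMPO, which encodes the LAP2 proteins, rose from 33.5 ± 0.282 to 48.6 ± 1.44 FPKM (SD, n = 3 each; 0.46, limma adjusted p = 7.86e-05), and LBR, the lamin B receptor, by 0.34 (limma adjusted p = 0.000231). BANF1, a chromatin-binding protein of the reforming envelope, fell (-0.26, limma adjusted p = 0.00330), as did LMNA, the A-type lamin gene (-0.34, limma adjusted p = 0.00755). Of 6 SUMO pathway genes tied to the pore 1 rose and 1 fell: SENP2 rose by 0.46 (limma adjusted p = 0.000147) and SUMO3 fell (-0.44, limma adjusted p = 0.000130), with a median of -0.04.

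The partners of SEC13 and SEH1L outside the pore, COPII coat and GATOR2 genes, had 3 of 14 higher and 3 lower, with a median of -0.08. At an unadjusted limma p below 0.05, 3 were higher and 6 lower, against 21.2% and 22.7% of all tested genes. By voom 3 were higher and 5 lower, against 18.8% and 20.4%. SEC31A, which forms the outer COPII cage with SEC13, fell from 30.9 ± 0.127 to 26.9 ± 0.431 FPKM (SD, n = 3 each; -0.27, limma adjusted p = 0.00112), and the cargo adaptor SEC24D fell as well (-0.45, limma adjusted p = 0.000277). Its relative SEC24B rose by 0.17 (limma adjusted p = 0.0154), and the small GTPase SAR1B rose by 0.36 (limma adjusted p = 0.00880). Thus SEC13 fell with some coat genes while other coat genes rose.

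Mitotic genes moved in the same comparison and by more. Of 26 listed genes 22 were higher and 0 lower (limma adjusted p), with 25 higher and 1 lower at an unadjusted p below 0.05 and 22 and 1 by voom. Their median log2 fold change was 0.55. KIF4A, a chromosome-bound kinesin, rose from 12.9 ± 0.286 to 23.7 ± 0.0608 FPKM (SD, n = 3 each; 0.80, limma adjusted p = 6.73e-06), and the checkpoint kinase gene BUB1 rose by 0.93 (limma adjusted p = 1.36e-05). The summed FPKM of the list ran from 530.6 to 560.6 in untreated and from 815.8 to 881.8 in phosphoramidon libraries. The part of this difference in the values of the nuclear pore genes was not tested.

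**Figure D4:**
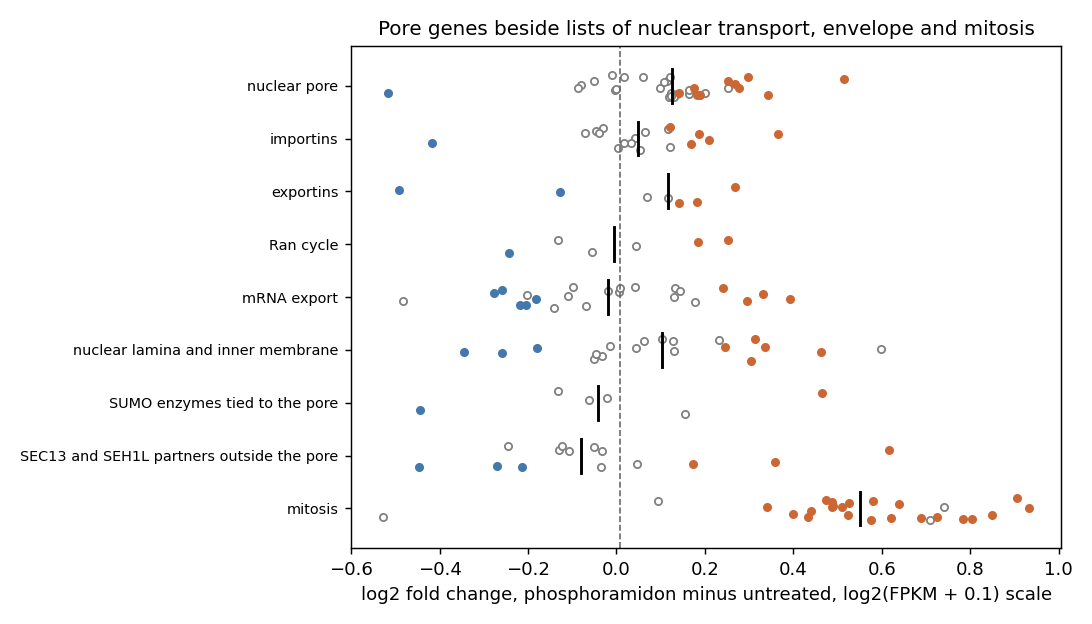
Log2 fold change (phosphoramidon minus untreated, log2(FPKM + 0.1) scale) of every tested gene in the nuclear pore list and 8 other lists, with filled points past a limma adjusted p below 0.05, black bars at list medians and a dashed line at the median of all tested genes. The nuclear pore median is 0.13, the transport and envelope lists lie between -0.08 and 0.12, and the mitosis list is at 0.55.

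Other cell type markers moved beside these genes. The keratin and junction markers had 3 of 5 lower and 0 higher, and their summed FPKM was 327.9 to 365.3 in untreated and 200.3 to 214.8 in phosphoramidon libraries, with KRT19 the highest of these genes by mean in both groups. Of 6 fibroblast markers 4 were tested and all 4 were lower, with sums of 60.9 to 65.7 and 23.5 to 24.9 FPKM, most of it LUM, while PDGFRA and COL1A2 were near 0. Of 14 proximal tubule markers 5 were tested, 2 were lower and 0 higher, with sums of 62.7 to 66.5 and 69.8 to 72.6 FPKM. Nearly all of that sum was PAX8 (means of 63.7 and 70.5 FPKM), which did not pass (log2 fold change 0.07, limma adjusted p = 0.206). The genes that were lower, GGT1 and SLC34A1, had untreated means of 0.833 and 0.161 FPKM. Of podocyte markers 1 was higher and 1 lower, most of the sum of 12.8 to 13.6 and 11.8 to 12.3 FPKM being SYNPO. The endothelial sum was 0.0796 to 0.130 and 0.132 to 0.138 FPKM, the leukocyte sum 0.657 to 0.983 and 0.567 to 0.834 FPKM, most of it CD14, and the distal nephron sum 0.0379 to 0.0590 and 0.0381 to 0.0496 FPKM, with SLC12A1 listed at 0 in every library. Zero calls in these marker lists were also 0 at an unadjusted limma p below 0.05 and by voom. The part of these markers in the nuclear pore values was not tested.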

How the data were processed

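RNA-seq of HK-2 cells gave 6 libraries in 2 groups of 3. The deposited values are FPKM per Ensembl gene, made by the authors. For their making, the submitters' processing notes list HISAT2 2.1.0, featureCounts 1.6.0, Trimmomatic 0.38, DESeq2 1.22.1, CASAVA, MultiQC, FastQC and the build GRCh38, and do not say which did what. The annotation release and use of strand: not given in the sources used here. A gene name table matched 37892 of 38126 IDs, and coordinates are from GENCODE 29 (GRCh38). Fragments were recovered as FPKM times gene length over 1 step per library. Of 34623 genes above 0, 79.2% were whole within 0.05 at the GENCODE 29 length (10 of the 32 nuclear pore genes). For the others a length giving whole fragments was searched, which is no check on it. One fragment on 1 kb was worth 0.0401 to 0.0535 FPKM.

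FPKM were divided by TMM factors (trimming 30% of M and 5% of A values, own code on recovered fragments). Then log2(FPKM + 0.1) was fitted with limma 3.58.1 (R 4.3.3; group only, trended and robust prior) for genes with at least 10 fragments in at least 3 libraries. P-values were Benjamini-Hochberg adjusted over all tested genes, with a threshold of 0.05. The procedure was tested on simulated data with the same spread setting for every gene and no effect of library number. That test does not cover genes with a spread like that of TPR or RANBP2. Shared sequence was counted as 50-base words of GENCODE 29 transcripts.

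The genes and lists were chosen with earlier results of these data known, and the motifs and the limits used for library number 1 after values were seen. Values in every library are given for called genes among the 12 with the lowest p, the highest and lowest gene of each substructure, and POM121, POM121C, RANBP2 and NUP98. From other lists up to 2 called genes per direction with the lowest p are named (mitosis, 2 in all). NUP62CL, RGPD8 and NUP210L were added for their likeness to members.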

Additional observations from a re-analysis of the deposited data

How the results depend on the processing

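The count of nuclear pore genes called higher was 10, and ranged from 6 (without untreated replicate 2) to 12 (without untreated replicate 1) when single libraries were left out. It was 6 with no filter on low genes, where 34623 genes were tested and the count over all genes fell from 2529 to 1541, 20 on the values as deposited (3647 over all genes) and 17 with voom on recovered fragments (3045 higher and 3306 lower over all genes). The cause was not tested for the deposited values and voom. It was 9 to 14 with the other pseudocounts, filters, factors, variance priors and GC and length correction tried. Alternatives chosen after seeing the data gave 9 (TMM factors over all genes), 8 (both libraries numbered 1 left out) and 13 (replicate block with GC and length trend removed). The count called lower was 1 in every alternative run, none of the 32 genes was past 1.5-fold in any, and their median lay between 0.11 and 0.20. Of the 21 genes that did not pass, 11 were called in some alternative and 10 in none. No called gene changed sign.

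The deviations of same-numbered libraries from their group means correlated at 0.11 for number 1, -0.02 for number 2 and -0.01 for number 3 over tested genes. Untreated library 2 and phosphoramidon library 3 correlated at 0.12, so the value for number 1 was no larger than for libraries of unlike number. The numbers were not taken to pair the samples. Not every library correlated best with its own number. With a replicate block 11 nuclear pore genes were called higher and 1 lower: AHCTF1 (limma adjusted p = 0.00420) and POM121 (0.0405) passed, POM121C (0.0574) did not, and TPR was at 0.0558. Depth limits NUP35 most, with 292 fragments in its lowest library.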
